A study of Drosophila melanogaster with 3 samples.

Results

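Of the 11195 summits of Ultraspiracle (USP) binding in the IDR-thresholded list, 1088 (9.72%) lay in intergenic sequence, in no annotated gene body and more than 500 bp from every transcription start site (TSS). They were chosen by position alone, with Ensembl gene models and with transposable elements left out, and their signal played no part in the choice. The limit is a short one: the nearest member lay 504 bp from a TSS, and 45.9% of them lay within 2 kb of one. The data are ChIP-seq peaks from whole Drosophila melanogaster larvae at the wandering stage of the third instar, males and females pooled, from a strain with stable expression of usp carrying eGFP at its C terminus, precipitated with an antibody against GFP. All 3 biological replicates belong to this single group, and no untagged, untreated or younger group was compared. The labels give the age as unknown and do not say which promoter drives the tagged gene. In whole animals, binding in few cells and weak binding in many cells cannot be told apart.

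USP is the fly counterpart of the vertebrate RXR receptors. It pairs with the ecdysone receptor EcR to form the receptor for 20-hydroxyecdysone, the steroid whose pulses time the moults and metamorphosis, and wandering larvae are approaching the pulse that starts pupariation. The pair binds short DNA elements, the best known of which is a pair of inverted hexamers with 1 base between them (EcRE IR1). Sites away from promoters are often enhancers, DNA stretches that act on a gene from a distance, and a nearest gene is not always the gene they act on.

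The sequences that carry an EcRE IR1 element are shown first, because this is the element by which the receptor is known to bind. Within 100 bp of the 1088 summits 6 matches were found, each near a different member. The lines give the nearest gene by TSS, the position of the element on dm6, and the plus strand 5′ to 3′ with the element in capitals, from the RefSeq copy of that genome.
Eip93F, chr3R:21941199-21941211: agccaaaaAGTTCATTGAACCtggcccag
lncRNA:CR44621, chrX:13394509-13394521: tgtaagtgGGTTCAATGACCTttgctctc
lncRNA:CR44545, chr3L:10787907-10787919: gtttggtcGGTTCATTGAACTcgccggcg
Ugt36D1, chr2L:18822559-18822571: gtttatttGGTTCAATGAACTtgagattt
CG12483, chr3L:100861-100873: tgcggctgAGGTCATTGAACTccgtatac
lncRNA:CR43642, chr3R:13820708-13820720: caaaaataAGTTCATTGAACTatttgtga
The next lines show the 101 bases around 4 summits that the results return to: the strongest member, the strongest with the inner part of the element, the strongest in the gap upstream of Blimp-1, and the member farthest from any TSS. Capitals mark GAGAG or its reverse complement, except at rank 9, where they mark the inner part of EcRE IR1. All are plus-strand sequence of dm6.
COX7AL2 and CG31668, rank 2, chr2L:2200374-2200474: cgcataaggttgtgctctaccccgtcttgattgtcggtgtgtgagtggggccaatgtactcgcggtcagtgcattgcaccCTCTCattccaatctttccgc
lncRNA:CR45437, rank 9, chr3L:16195384-16195484: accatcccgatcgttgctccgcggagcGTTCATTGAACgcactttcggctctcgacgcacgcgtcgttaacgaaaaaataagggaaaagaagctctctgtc
Blimp-1, rank 60, chr3L:5622025-5622125: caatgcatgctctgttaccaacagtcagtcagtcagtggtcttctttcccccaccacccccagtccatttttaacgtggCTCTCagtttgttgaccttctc
NijA and CG43245, rank 809, chr3L:10737383-10737483: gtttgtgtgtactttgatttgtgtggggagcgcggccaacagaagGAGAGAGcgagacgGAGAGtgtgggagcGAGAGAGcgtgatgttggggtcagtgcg
The windows of ranks 2 and 60 hold 1 GA element each, and that of the summit farthest from any TSS holds several.

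Intergenic sequence that meets the rule made up 36.5 Mb, or 27.2% of the 134 Mb on the 6 chromosome arms, and held 29.8 summits per Mb against 104 per Mb in the rest of the genome. Because the deposited signal is not scaled between lists, each replicate was cut to its 11195 strongest peaks. Replicate 1 then held 1042 intergenic summits, replicate 2 held 1130 and replicate 3 held 1057, which is 9.31%, 10.1% and 9.44% of each list (mean 9.61% ± 0.421, SD, n = 3). The density was 28.6, 31 and 29 per Mb in these lists, all far below the density elsewhere. By arm, 3L held 368 of the 1088 (40.5 per Mb; 40.1 ± 2.54 in the replicates), 3R held 240 (31.3 per Mb), 2L 176 (26.2), X 138 (26) and 2R 166 (22.3). On 3L 15.1% of all summits were intergenic, on X 6.91%, and chromosome 4 had none.

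The signal of intergenic summits spanned the whole list. It is the authors' score of each peak, used here only within a list. The lowest value was 365, the median 706 and the highest 43885, and the quartiles were 486 and 1297. Promoter summits, within 500 bp of a TSS, had a median of 725 and intron summits of 788. As a rank percentile, where 100 is the strongest peak of a list, the median of intergenic summits was 48.8 in replicate 1, 46.2 in replicate 2 and 47.1 in replicate 3. The difference from promoter summits was 1.01, -2.47 and -0.831 points (mean -0.765 ± 1.74, n = 3; exact two-sided sign-flip permutation p = 0.75). Against intron summits it was -4.39, -6.18 and -5.81 points (mean -5.46 ± 0.947; exact permutation p = 0.25, the smallest that 3 replicates allow). Intergenic summits thus ranked below intron summits in all 3 replicates, while the difference from promoters changed sign between them.

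The ends of the ranking differed from its middle. Among the 100 strongest peaks 17% were intergenic, with 15%, 19% and 19% in replicates 1, 2 and 3. From rank 101 to 1000 the share was 10.4%, from 1001 to 5597 it was 8.72%, and from 5598 to 11195 it was 10.3%. Among the 5597 strongest peaks of each replicate, re-ranked among themselves, the median intergenic percentile was above that of promoters by 6.6 points on average (exact permutation p = 0.25, the smallest possible), the opposite sign from the whole list. In the authors' pooled list, below the IDR threshold, 13.7% of the peaks down to rank 20000 and 16% of those from 20001 to 30000 were intergenic.

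Most intergenic summits recurred in every replicate. Within 100 bp, 919 of the 1088 were found among the strongest 11195 of replicate 1, 926 among those of replicate 2 and 970 among those of replicate 3 (84.5%, 85.1% and 89.2%; mean 86.2% ± 2.54). All 3 held 760 (69.9%), beside 71.2% for all summits, so the share was near the background. The IDR-thresholded list derives from replicates 2 and 3, and replicate 1 had no part in it. A further 220 were found in exactly 2 replicates, 95 in 1 and 13 in none. In the full deposited lists each of the 1088 was found in at least 1 replicate. There 1004 (92.3%) were found in all 3, beside 91.6% of all summits. Recurrence followed rank: 94.7% of the members among the 5597 strongest peaks were found in all 3, but 47.7% of the others. Over all summits these shares were 94.8% and 47.7%, so this is a trait of the whole list. Cutting each replicate to its strongest 11195 peaks also drops weak summits first. Those found in all 3 had a median signal of 955, the rest 434. The difference between intergenic and other summits was -3.2, 0.555 and -1.29 percentage points (mean -1.31 ± 1.88; exact permutation p = 0.5), which changed sign between replicates. It changed sign on average in the full lists, at 0.183 points (exact permutation p = 0.5).

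Summits thinned out steadily with distance from a TSS. The median distance of an intergenic summit was 2256 bp, and it was 2216, 2324 and 2247 bp in replicates 1, 2 and 3. Among all bases that meet the rule the median was 5941 bp. Between 501 and 1000 bp from a TSS there were 80.2 ± 1.95 summits per Mb (n = 3), between 1001 and 2000 bp 59.2 ± 2.16, and between 2001 and 5000 bp 34.8 ± 1.5. From 5001 to 10000 bp the density was 25.3 ± 2.38, from 10001 to 20000 bp 13.6 ± 0.347, and beyond 20 kb 2.27 ± 0.126. The replicate values of neighbouring distance classes did not overlap at any step. Repeat-masked bases made up 26.6% of the sequence, and per Mb of unmasked sequence the density fell likewise, from 101 ± 2.45 next to the limit to 3.88 ± 0.215 beyond 20 kb. At the limit itself, 29 members lay 501 to 550 bp from a TSS with a median signal of 893, and 27 summits outside gene bodies lay 451 to 500 bp from one with a median of 836.

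**Figure D1:**
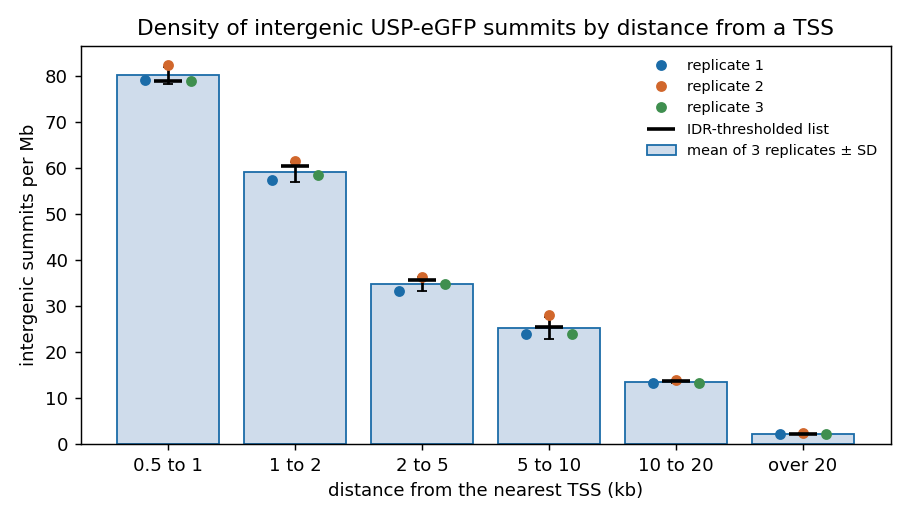
Intergenic summits per Mb of sequence that meets the rule (y axis) against distance from the nearest TSS in kb (x axis). Bars are the mean of 3 replicates with SD, dots the replicates and black dashes the IDR-thresholded list; density falls from 80.2 per Mb next to the limit to 2.27 beyond 20 kb.

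Up to 20 kb from a TSS, median signal fell from class to class as density did. The median signal was 787 for the 223 members within 1 kb of a TSS, 715, 695 and 661 in the next 3 classes, and 623 for the 69 members at 10001 to 20000 bp. Beyond 20 kb it was 875, but only 17 members lay there, 8 of them in the gap between NijA and CG43245 and 3 of them in 1 interval beside Tollo, a Toll-family receptor gene. Of those 17, 82.4% were found in all 3 replicates, beside 78% within 1 kb and 65.6% to 69.9% in between.

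The nearest TSS belonged to a protein-coding gene for 732 members (67.3%), to a noncoding RNA gene for 325 (29.9%), to a tRNA gene for 26, to a pseudogene for 4 and to a snoRNA gene for 1. No share over all bases that meet the rule is given beside these. Counting TSSs of protein-coding genes alone, the median distance was 3312 bp. The summit lay upstream of that nearest TSS in 706 cases (64.9%), and in 64.5%, 65.6% and 65.8% of the members of replicates 1, 2 and 3, beside 58.5% of all bases that meet the rule. Both genes at the edges of the gap were protein-coding for 554 members, 1 of them for 404 and none for 130. These are 50.9%, 37.1% and 11.9% of members. Gaps of these kinds hold 48.1%, 42.2% and 9.68% of the sequence that meets the rule, so the shares were near the background. In an annotated transposable element lay 2 members, 1 of them 728 bp from the TSS of Roc1a on X and the other 3322 bp from that of lncRNA:CR43685 on 3R. The share of intergenic sequence in such elements is not given here, so this count has no background.

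Gaps whose flanking genes point away from each other had the highest density. These divergent gaps held 39.2, 41.9 and 41.1 summits per Mb in replicates 1, 2 and 3. Tandem gaps, with both genes on 1 strand, held 27.6, 30.7 and 27.5. Convergent gaps held 26.3, 27.4 and 26.5. No divergent value overlapped those of the other types. Divergent exceeded tandem gaps by 12.2 ± 1.27 per Mb and convergent gaps by 14 ± 0.956 (n = 3; exact permutation p = 0.25 for both, the smallest possible). The IDR-thresholded list gave 298 members in divergent gaps, 538 in tandem and 252 in convergent ones. Members in convergent gaps ranked lower, with a median percentile of 42.1 ± 1.23 against 49.7 ± 1.04 in divergent gaps (difference 7.59 ± 1.94; exact permutation p = 0.25) and 48.5 ± 1.73 in tandem gaps. Of them 63.9% were found in all 3 replicates, against 73.5% of those in divergent and 70.6% of those in tandem gaps.

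Distance from a TSS moved with gap type. The median member lay 1681 bp from a TSS in divergent, 2032 bp in tandem and 3308 bp in convergent gaps. Within single distance classes the order of the types changed. At 501 to 1000 bp the densities were 86.8 ± 3.18, 79 ± 1.62 and 68.1 ± 3.1 per Mb in divergent, tandem and convergent gaps. At 1001 to 2000 bp they were 58.7 ± 2.5, 57.9 ± 4.29 and 64.4 ± 1.36, and at 5001 to 10000 bp convergent gaps were highest, with 30.8 ± 0.496 against 22.9 ± 2.7 and 23.5 ± 3.62. Beyond 20 kb divergent gaps held 14.7 ± 0.978 per Mb against 1.32 and 1.85, and all 8 divergent members there lay in a single gap, between NijA and CG43245. Up to 20 kb from a TSS, a limit chosen after this was seen, divergent exceeded tandem gaps by 7.34 per Mb and convergent gaps by 7.91. From 2001 to 20000 bp the differences were 5.29 and 0.599, the latter with an exact permutation p of 0.5.

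**Figure D2:**
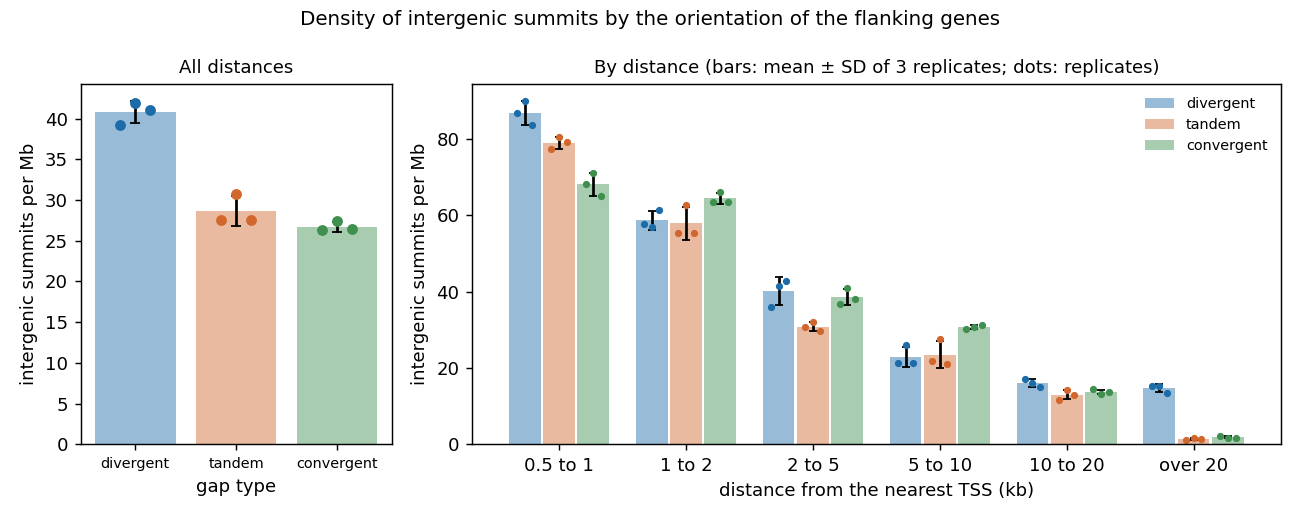
Intergenic summits per Mb (y axes) by the orientation of the flanking genes, over all distances (left) and by distance from the nearest TSS in kb (right). Bars are means of 3 replicates with SD and dots the replicates; divergent gaps stand at 39.2 to 41.9 per Mb over all distances, but the order of the types changes between distance classes, with convergent gaps highest at 5001 to 10000 bp.

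Members were gathered in few gaps. Of the 6528 gaps with sequence that meets the rule, 584 (8.95%) held a member. A single member lay in 361 of them, 2 lay in 125, and 98 gaps held 3 or more, together 477 members (43.8%). In 9 gaps there were 10 or more. Gaps of at most 5 kb had 90.2 summits per Mb of such sequence and gaps over 50 kb had 4.27, with the classes between at 36.8, 31.9 and 20.7. Distance from a TSS was not held fixed here, so this fall was not separated from the fall with distance above. The nearest other summit of any class lay 1122 bp away in the median case, 506 members had one within 1 kb, and 115 (10.6%) had none within 10 kb. Of promoter summits 6.33% and of intron summits 4.49% were so isolated. A member alone in its peak interval, as 729 were, had a median signal of 626, and one that shared its interval had 1059. A promoter summit lay in the same interval for 78 members. Summits of 1 interval were never closer than 199 bp: of 183 adjacent pairs of members in the same interval, 121 (66.1%) lay 190 to 230 bp apart, a range chosen after the distances were seen.

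The gap with most members separates NijA, which encodes the membrane protein ninjurin A, from the uncharacterised gene CG43245 on 3L. It spans 75047 bp and held 22 members, with 21, 22 and 19 in the lists of replicates 1, 2 and 3. Signal there ran from 372 to 3154, the best rank was 809, and 15 of the 22 were found in all 3 replicates. The next gap lies on the 3′ side of Eip75B, the gene of the nuclear receptor E75, an early target of ecdysone, with a noncoding gene between them. It runs over 21466 bp from CG5290 to lncRNA:CR43174 and held 15 members, with 15, 15 and 14 in the replicates. Its strongest member, at 17925349 on 3L, had a signal of 9495 at rank 114 and stood at ranks 127, 116 and 106 in replicates 1, 2 and 3. That summit lay 25604 bp from the 3′ end of Eip75B and 8683 bp from the TSS of the noncoding gene.

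Eip93F, which encodes the transcription factor E93 that directs adult development, follows a gap of 33567 bp behind Qsox2 on 3R. Its 12 members (13, 12 and 11 in the replicates) fell into a pair of clusters, 4 of them 5976 to 8370 bp from Qsox2 and 7 of them 4954 to 11235 bp from Eip93F, with 1 weak member between. The strongest, 4954 bp upstream of Eip93F, had a signal of 4817 and ranks of 502, 467 and 355. Blimp-1 encodes a zinc finger repressor that ecdysone induces and that times the later expression of ftz-f1. The gap of 22682 bp between Eaf6 and Blimp-1 held 11 members, all found in all 3 replicates, with a median signal of 1921. The strongest, at rank 60, lay 8908 bp from the TSS of Blimp-1, and its signal was 4036, 3269 and 5397 in replicates 1, 2 and 3, at ranks 56, 64 and 61. The gap between lncRNA:CR44526 and SrpRbeta, the gene of a subunit of the receptor for signal recognition particles, held 11 members too, all within 8665 bp. The best of them ranked 95. The gap on the other side of the same noncoding gene borders hry, the gene of the bHLH repressor Hairy, and held another 10.

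**Figure D3:**
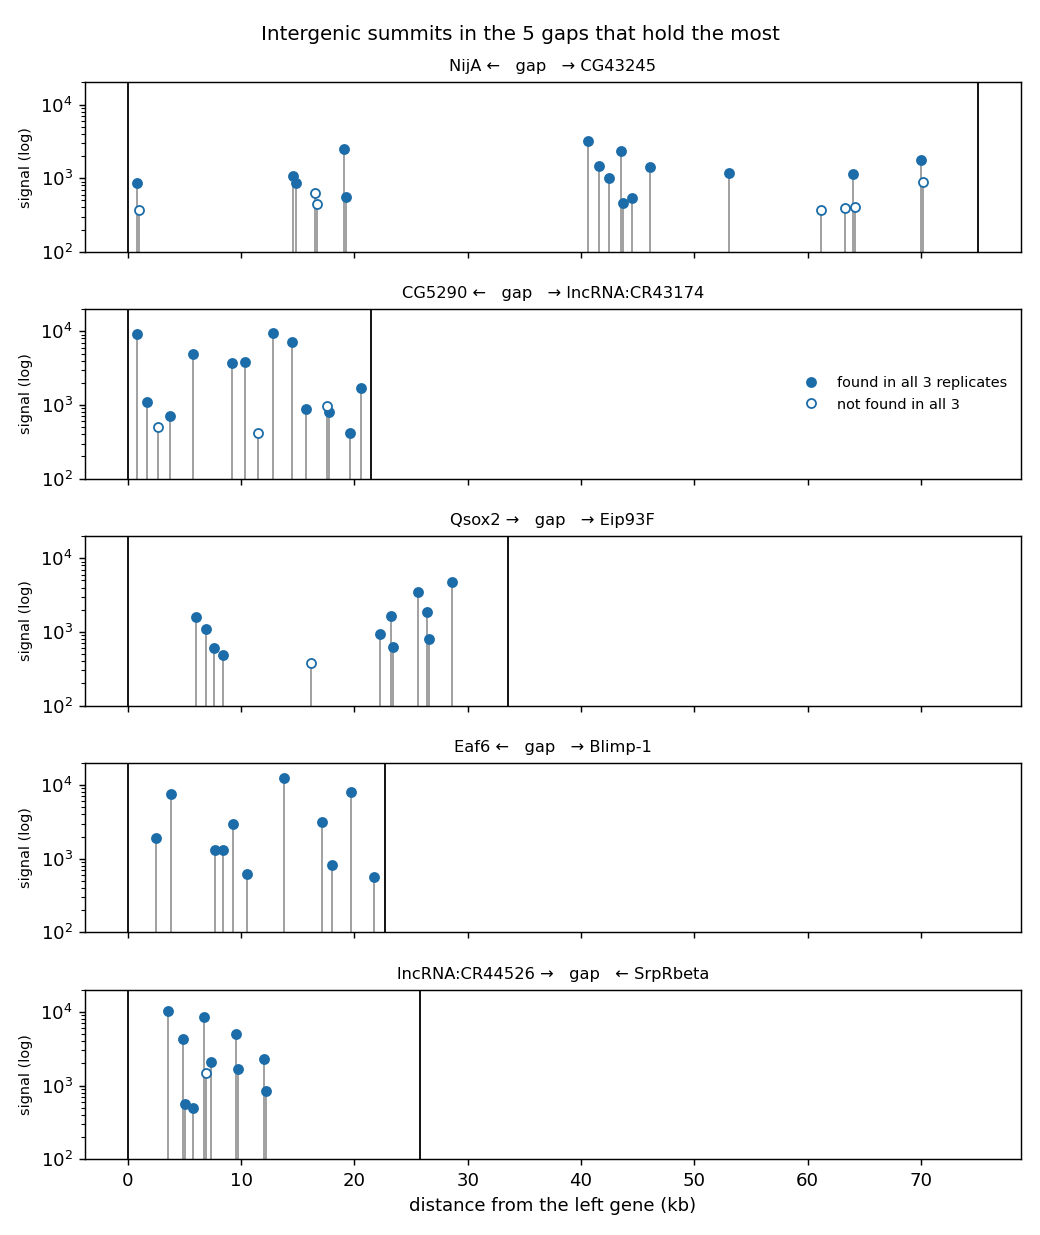
Signal of each intergenic summit (y axes, log scale) against its distance from the left gene in kb (x axis) in the 5 gaps with most members; vertical lines are the gap's edges and arrows the strands of the flanking genes. Filled points were found in all 3 replicates; all 11 of the Eaf6 to Blimp-1 gap are filled, against 15 of 22 between NijA and CG43245.

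The 15 strongest members were concentrated at few places, and all 15 were found in all 3 replicates. The first, ranked 2 of all summits, lay on 2L at 2200424, 2512 bp upstream of COX7AL2, named for a cytochrome c oxidase subunit, with the gap's other edge at CG31668. Its signal was 12945, 11387 and 19786 in replicates 1, 2 and 3, at ranks 3, 2 and 2. The same interval, which also covers a promoter summit, held the members ranked 15 and 63. Rank 5 was taken by a summit on 3L at 3246573, 1442 bp upstream of CG43389, with signals of 9456, 8934 and 12664 and rank 5 in each replicate. A second member beside CG43389 ranked 45, and the interval that holds both also covers a promoter summit. The member ranked 9, on 3L at 16195434, lay 1785 bp from the TSS of lncRNA:CR45437 and 2434 bp from that of CG33687. Its replicate signals were 8209, 6613 and 10999, at ranks 9, 11 and 9, and the summit 214 bp away ranked 32.

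Around Rh5, an opsin gene used in larval and adult photoreceptors, lay 4 of the 15. Those ranked 12 and 37 stood between Rh5 and lncRNA:CR44588, and those ranked 79 and 80 between Hacd1, which is named for a fatty acid elongation enzyme, and Rh5. The member ranked 12 had replicate signals of 8315, 6519 and 10220. Those ranked 79 and 80 stood at ranks 133 and 139 in replicate 1 but between 52 and 83 in the others. They share an interval that also covers a promoter summit. Single strong members lay 2929 bp upstream of the gustatory receptor gene Gr93a on 3R (rank 31; 27, 31 and 32 in the replicates), beside CG3842 and CG3847 on X (rank 69; 66, 69 and 78) and beside Ppa, an F-box protein gene, on 2R (rank 73; 70, 100 and 67).

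Of the members farthest from a TSS, 4 of the first 5 lay in the gap between NijA and CG43245. The farthest, at 10737433 on 3L, stood 34492 bp from CG43245 and 40556 bp from NijA, with signals of 1039, 820 and 1307 and ranks of 807, 873 and 868 in replicates 1, 2 and 3. Behind it, at 10738526, 10739427 and 10740328, lay members with IDR-list signals of 1455, 1019 and 2364. The remaining one, 34402 bp from the TSS of lncRNA:CR45115 in the gap next to vvl, the gene of a POU-domain factor, was weak, with a signal of 531 and ranks of 9787, 7102 and 7974. All 5 were found in all 3 replicates.

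Sequence around the summits, in windows of 201 bp, was compared with 180374 windows that tile the same intergenic sequence. Members were richer in G and C, with a mean of 44.3% ± 8.33 (SD over members) against 40.8% in the tiles, and their GC content was close to that of promoter summits (44.5%) and intron summits (44.2%). Windows at least 50% masked as repeats made up 2.67% of members and 15.9% of tiles. Shares below carry exact 95% binomial intervals, which cover counting error only, and both strands were searched. The EcRE IR1 element occurred at 0.551% of members (0.203 to 1.2), in 0.0288% of tiles, at 0.228% of promoter summits and at 0.596% of intron summits. Its inner part, looked for after the strongest windows had been read, occurred at 12 members (1.1%, 0.571 to 1.92) and in 0.0804% of tiles. The 12 include the 6 members with the full element, which contains it. Because it was picked from windows of these members, its share is a description only. The hexamer AGGTCA, 1 spelling of an arm of the element, occurred at 4.87% of members (3.67 to 6.32) and in 5.08% of tiles. This spelling was thus no more frequent at members. Other spellings, such as AGTTCA and GGTTCA in the elements above, were not searched as single arms. Promoter summits held AGGTCA at 5.23% and intron summits at 7.17%. The 53 members with that hexamer had a median signal of 1034 against 693 for the others, and 90.6% of them were found in all 3 replicates against 68.8%. Median signal was also higher with some elements described below, such as CACGTG (930 against 698) and TTCNNNGAA (902 against 700). With others it was lower, such as TGANTCA (691 against 706) and AAAAAAAA (678 against 708).

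Of the other short elements some were more frequent at members than in tiles, mostly at shares like those of summits in promoters and introns. GAGAG, the core of sites for GAGA factor, was found at 30.9% of members (28.1 to 33.7) and in 20.8% of tiles, and at 35.7% of promoter and 34.2% of intron summits. The longer GAGAGAGA, which contains it, was found at 4.04% of members, in 0.924% of tiles, and at 4.73% of promoter and 4.89% of intron summits. GATAAG, read by GATA factors such as Serpent, was found at 15.8% of members (13.7 to 18.1) and in 7.96% of tiles, with promoter summits at 16% and intron summits at 20.2%. GAGAG was thus less frequent at members than at promoter summits, and GATAAG less frequent than at intron summits, with intervals that do not overlap. Against intron summits the same held for AGGTCA, above (3.67 to 6.32 against 6.45 to 7.95). It held for TGANTCA, below, too (3.75 to 6.43 against 7.16 to 8.73). These intervals treat summits as independent, although some share a peak interval. CACACACA was found at 8.64% of members and in 3.98% of tiles, beside 10.1% at promoter and 10.5% at intron summits. AACCGGTT, a site of Grainyhead, a factor of epidermal cells, was found at 0.919% of members (0.442 to 1.68) and in 0.13% of tiles, beside 0.705% and 1.3%. TGANTCA, which AP-1 binds, stood at 4.96% of members (3.75 to 6.43) and 3.6% of tiles, beside 5.19% and 7.92%. CAGGTAG, the site of Zelda, stood at 1.75% of members (1.05 to 2.71) and 0.884% of tiles, beside 0.975% and 0.958%, so members had the highest share but their interval overlapped those of both other classes. The STAT element TTCNNNGAA went the other way from tiles, at 4.96% of members (3.75 to 6.43) and 6.13% of tiles. The E-box CACGTG stood at 3.12% and 2.21%, TTACGTAA, the site of vri, at 0.368% and 0.221%, and AAAAAAAA at 13.3% and 10.7%. Members were also richer in G and C than the tiles, and the part of GC content in these shares was not tested. Elements of core promoters were rare: TATCGATA (DRE) lay at 0.368% of members (0.1 to 0.939), in 0.447% of tiles and at 3.3% of promoter summits, and GGTCACACT, a core of sites of M1BP, at 0 of 1088 members, which allows up to 0.338%, in 0.0904% of tiles and at 2.2% of promoter summits.

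**Figure D4:**
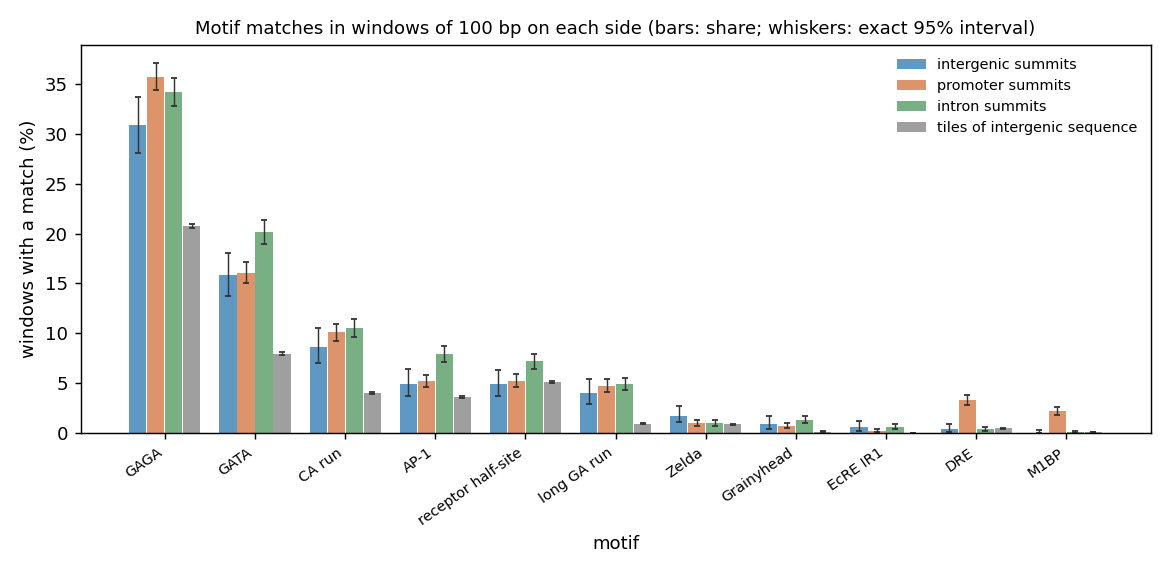
Share of 201 bp windows with a match (y axis, %) for 11 motifs (x axis), at intergenic, promoter and intron summits and in tiles of intergenic sequence; whiskers are exact 95% binomial intervals. GAGA leads at members with 30.9% against 20.8% of tiles, while DRE and M1BP are seen mainly at promoter summits, at 3.3% and 2.2%.

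The 6 members with an EcRE IR1 element, whose sequences are given above, ran from strong to weak. The strongest stood 7966 bp upstream of Eip93F, with signals of 1212, 662 and 1594 in replicates 1, 2 and 3 and its element 57 bp from the summit. At rank 730 on X, 1315 bp from the TSS of lncRNA:CR44621 and 2384 bp from that of Bcat, named for a branched-chain amino acid transaminase, the element lay exactly at the summit. Its signals were 1118, 885 and 1477. The third, next to lncRNA:CR44545 on 3L, ranked 1767 (1866, 1732 and 1787 in the replicates), with its element 18 bp from the summit. Those 966 bp upstream of the glycosyltransferase gene Ugt36D1, 2467 bp upstream of CG12483 and near lncRNA:CR43642 ranked 5948, 7900 and 10667. The element beside Ugt36D1 falls inside the annotated body of the neighbour Ugt36F1, whose end lies 9 bp from the summit. The last was missed among the strongest 11195 of replicates 1 and 3, where it ranked 12603 and 11422, and the other 5 were found in all 3 replicates. The inner part without the full element, looked for after the strongest windows had been read, lay near members of varied neighbours and ranks. By nearest TSS these included lncRNA:CR45437 (rank 9), ImpE1 (1359), Qsox2 (3614), tRNA:Pro-AGG-1-2 (8172) and CG15756 (10158). ImpE1 is a gene that ecdysone induces in imaginal discs, and the Qsox2 member lay in the gap between Qsox2 and Eip93F. A link of the inner part to ecdysone genes was not tested.

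The flanking genes were then taken as the nearest protein-coding gene on each side of a member. In all, 966 of 13945 protein-coding genes (6.93%) flanked at least 1 member, and the replicates' own lists gave 947, 953 and 968. Of these genes 6085 had no sequence that meets the rule on either side, and of the 7860 that had some, 12.3% flanked a member. Among 17 regulators of the ecdysone response 7 flanked a member (41.2%), and 7 did in each replicate; 14 of the 17 had such sequence. Of 20 ecdysone-induced effectors 8 did (40%), again 8 in each replicate, and 14 had such sequence. These counts are a description, without a test.

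Besides Blimp-1, Eip75B and Eip93F, the regulators were E23, Kr-h1 and, named after their values were seen, Eip78C and vri. E23 encodes an ABC transporter that ecdysone induces. Its strongest member, at rank 129 (120, 130 and 159 in the replicates), lay 2190 bp from E23 but 627 bp from the TSS of its neighbour CG8838. Kr-h1, the zinc finger gene through which juvenile hormone holds back metamorphosis, had 6 members, the strongest 1061 bp from its TSS at 2L 6081542. There the signals were 1689, 2026 and 2342 at ranks 354, 179 and 330, so replicate 2 placed it highest. Eip78C, a nuclear receptor gene, had 1 member at rank 948 and vri, a bZIP repressor gene, had 2 with a best rank of 1684.

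Among the effectors, Hsp23 and Hsp27, small heat shock genes that ecdysone induces, flank a single member 542 bp from the TSS of Hsp27. Its signals were 2061, 1982 and 2971 at ranks 250, 193 and 206. Ldh, the lactate dehydrogenase gene, had 2, the strongest with signals of 2144, 1723 and 2971. ImpE2, another gene of imaginal discs, and Eip63E, a cyclin-dependent kinase gene, share 1 member, with signals of 835, 884 and 1083. The other effectors, outside the rule for names, were ImpE1, MsrA and Fbp1, with best ranks of 1359, 1572 and 2323.

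Of 24 signalling ligands 12 flanked a member (50%; 12, 12 and 13 in the replicates), and 19 had such sequence. The strongest belonged to pyr, an FGF gene, with signals of 576, 291 and 693 in replicates 1, 2 and 3 at rank 2249. The Wnt genes wg and Wnt6 share their strongest member, at rank 2253, with signals of 323, 660 and 662. The hedgehog gene hh had 3 members, with a best rank of 4524 (5620, 4987 and 4673). The best ranks of the other 8 ligands ran from 4698 at Ser, a Notch ligand gene, to 9162 at ths, an FGF gene, both named after their values were seen. The neighbours upd1 and upd3, also outside the rule for names, share their strongest member, and that of ths lies between ths and pyr. The 12 genes thus stand for fewer than 12 separate places.

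Sequence at hand differed greatly between lists. A median ligand gene had 12000 bp of flanking sequence that meets the rule, a regulator 3166 bp and an effector 669 bp, against 65 bp for all protein-coding genes. Genes with at least 10 kb of it flanked a member in 375 of 1652 cases (22.7%), and those with less in 4.81%. Of the ligands 11 of 13 with at least 10 kb did, and 1 of 11 with less. Of the regulators 3 of 3 and 4 of 14 did, and of the effectors 3 of 3 and 5 of 17. Of the Hox and segmentation homeobox genes, which had a median of 16297 bp, 3 of 11 with at least 10 kb did, at ranks of 5782 or weaker. How far flanking space sets the other counts was not tested.

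The remaining lists, though chosen for other tissues and pathways, mostly stood above the 6.93% of all protein-coding genes as well: 27.3% of hemocyte, 21.4% of neuronal, 16.7% of other nuclear receptor and 15% of homeobox genes flanked a member. Fat body and testis genes stood at 14.3%, muscle and ecdysteroid genes at 13.3%, juvenile hormone genes at 7.69% and glue genes at 0. Among genes with sequence that meets the rule on either side, the share was 12.3% over all protein-coding genes. In these lists it ran from 13.3% of muscle and 15% of homeobox genes to 50% of hemocyte genes, with glue genes at 0. None of these lists had more than 3 flanking genes. Larval fat body genes gave 2 of 14, Fbp1 and Lsp1gamma, a storage protein gene with 5 members and a strongest signal of 1992, 1741 and 2762 in the replicates. Hemocyte genes gave 3 of 11: the GATA factor gene srp at rank 818, Hml, the gene of hemolectin, at 1120 and the Runt-domain gene lz at 10255. Neuronal genes gave 3 of 14, with futsch, which encodes a microtubule-associated protein, at 945, Syt1, the synaptotagmin gene, at 7247 and ple, the tyrosine hydroxylase gene, at 8533. Ecdysteroid synthesis and transport gave 2 of 15: Cyp18a1, which encodes an enzyme that inactivates the hormone, at 4551, and shd, whose enzyme makes 20-hydroxyecdysone, at 5849. Of other nuclear receptors 2 of 12 did so, knrl at 9248 and kni at 10893, and of muscle genes 2 of 15, the actin genes Act57B and Act79B at 5101 and 6255. Testis-specific genes gave 2 of 14, Mst87F at 3670 and bol at 5942, and the homeobox genes were ems, en and al at 5782, 6297 and 8355. Some of these strongest members lay nearer another TSS. That at ems lay 37576 bp from ems but 1264 bp from the TSS of Art9. At knrl the distances were 40591 bp and 1260 bp to lncRNA:TS3, at ple 7980 bp and 696 bp to lncRNA:CR45417. At Lsp1gamma they were 4812 bp and 706 bp to lncRNA:CR43988. By contrast en, Act57B and Syt1 held the TSS nearest to theirs. The strongest members at ems and Act79B had no counterpart within 100 bp in the full list of replicate 2, nor that at Mst87F in replicate 3. Juvenile hormone genes gave 1 of 13, Kr-h1, and salivary glue genes 0 of 10, of which 3 had sequence that meets the rule.

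**Figure D5:**
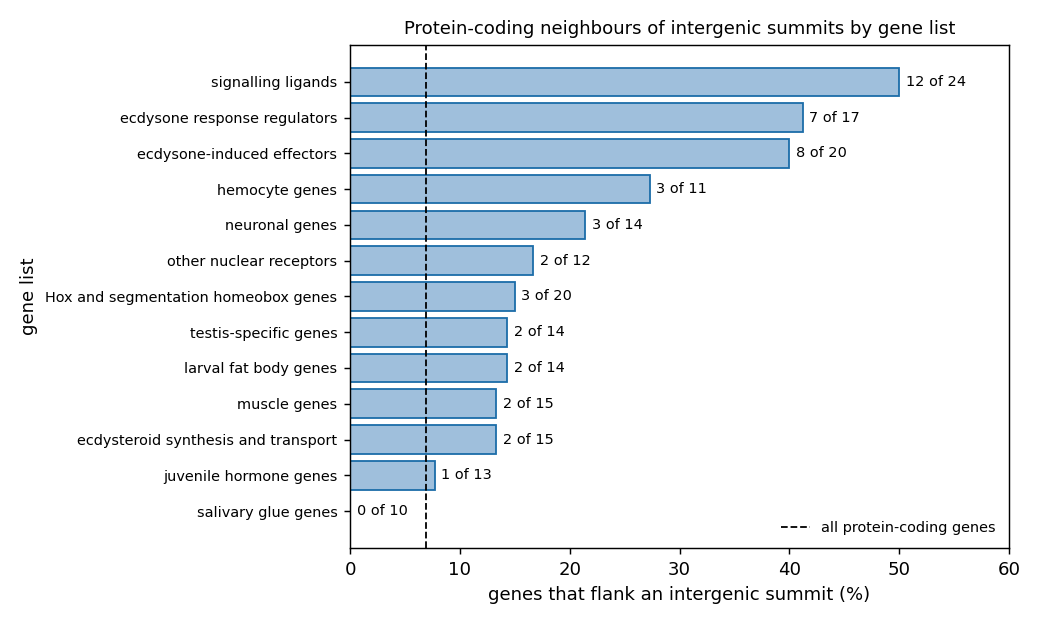
Share of each gene list that flanks at least 1 intergenic summit (x axis, %), with the counts beside the bars; the dashed line is the share of all protein-coding genes, 6.93%. Ligands, ecdysone response regulators and ecdysone-induced effectors stand at 50%, 41.2% and 40%, and every other list but that of glue genes also lies above the line. Bars and line also count genes with no flanking sequence that meets the rule. Among all protein-coding genes with such sequence the share was 12.3%, and among muscle genes 13.3%.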

How the data were processed

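USP-eGFP ChIP-seq peaks of 3 biological replicates of 1 group of whole larvae were used. The authors deposited 1 peak list per replicate, a pooled list and an IDR-thresholded list (IDR is the irreproducible discovery rate), aligned to dm6 with a control, per the file headers. The pooled and IDR-thresholded lists derive from replicates 2 and 3, per the file headers. Which aligner, caller and threshold made them is not given in the sources used here. Deposited signal is the authors' score per peak, not scaled between lists, and was used for ranks within a list. The deposited −log10 q-value was at 1 maximum in every IDR-thresholded peak and was not used to rank. Chromatin was sheared to 200 to 800 bp, per the labels, which limits how closely a summit marks a site. Read depth is unknown from peak lists, so no interval that needs it is given. The replicate and pooled lists held 30000 peaks each, and the 11195 IDR-thresholded peaks were the 11195 strongest of the pooled list. At most 1.86% of summits fell on the same base in any pair of replicates, so none was counted as a duplicate. The labels give each replicate a biological sample of its own.

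Summits were placed by Ensembl release 115 (BDGP6.54; 17683 genes, 23133 TSSs), with sequence from the RefSeq copy of release 6. Coordinates are 1-based. A gap is a run of bases in no gene body. Classes had the priority promoter, intergenic, exon, intron. Tests were exact two-sided sign-flip permutation tests of 3 replicate differences, whose smallest p is 0.25, so no comparison could pass 0.05. Of the gene symbols, 4 were read under newer names and 2 without a match were left out. Members, lists and motifs were chosen with earlier results of these data known. Named genes flank the 15 strongest members, the 5 farthest, the 5 fullest gaps, those with EcRE IR1, and up to 4 members a list by signal. The steps were tested on simulated data. Alternatives were other distances, gene sets, thresholds, windows and lists, and each replicate left out. Python 3.11.15, numpy 2.4.6, pandas 2.3.3, scipy 1.17.1 and matplotlib 3.10.9 were used.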

Additional observations from a re-analysis of the deposited data

How the results depend on the processing

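The intergenic share stayed within 1.5 times of 9.72% under every alternative tried but 1: it was 5.26% (589 summits) with a minimum of 2000 bp from a TSS. Leaving out each replicate gave 9.37% to 9.77%. The share found in all 3 replicates, 69.9%, was 57.4% within 50 bp, 76.5% within 200 bp, 92.3% in the full lists and 94.7% for the 5597 strongest peaks, and 73.6% to 78.5% when 1 replicate was left out, which asks for fewer replicates. The difference in recurrence from other classes reversed in the full lists (0.183 points against -1.31) and was -2.25 to -0.366 without single replicates. The difference in rank percentile from promoters, -0.765, reversed for the 5597 strongest peaks (6.6) and without replicate 2 (0.0893), with a range of -1.65 to 0.0893 over the replicates left out. The cause was not tested. The median distance of 2256 bp was 3312 bp with protein-coding TSSs alone, 2125 bp for the 5597 strongest peaks and 2324 bp in replicate 2, and 2232 to 2286 bp without single replicates. The share with EcRE IR1, 0.551%, was 0.48% in replicate 1, 0.46% and 0.643% with 50 and 200 bp on each side and 1.1% with the inner part of the element, and 0.524% to 0.594% without single replicates. The excess of divergent over tandem gaps ran from 4.47 per Mb at 501 to 2000 bp to 15 per Mb of unmasked sequence. That over convergent gaps ran from 0.599 at 2001 to 20000 bp (exact permutation p = 0.5) to 16.6. In single distance classes divergent gaps lay below tandem gaps at 5001 to 10000 bp (22.9 against 23.5) and below convergent gaps there (30.8) and at 1001 to 2000 bp (58.7 against 64.4). Without single replicates these excesses were 11.5 to 12.7 and 13.7 to 14.6. The number of flanking genes, 966, was 548 with the 5597 strongest peaks, and 950 to 960 without single replicates. The settings by distance class and unmasked sequence, the inner element and those for flanking genes were chosen after seeing the data. No paired analysis was possible because the study has 1 group.

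The smallest p of 3 replicates is 0.25. Depth is unknown, so a member missing from a replicate cannot be told from one not detectable there. Whole larvae do not show which tissue a summit comes from, and a flanking gene is a neighbour, not a shown target. Tiles of intergenic sequence differ from members in GC content and masking.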
